A study of Homo sapiens with 10 samples.

Results

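The matricellular genes described here are TNC, THBS1, THBS2, SPARC, POSTN, CCN1, CCN2 and TGFBI, chosen by name with earlier results of these data known. All 8 were found among the 14054 genes of the count table. They were measured in MRC5, an established line of human fetal lung fibroblasts, given medium conditioned by A549, an epithelial line from a human lung adenocarcinoma that is used as a model of the alveolar lining. In 5 libraries the A549 cells had not been stretched (static medium: static 1, 3, 5, 7 and 9), and in 5 they had been mechanically stretched (stretch medium: stretch 2, 4, 6, 8 and 10). No library of MRC5 in unconditioned medium is among the 10, so every value is from cells exposed to medium of a tumour line. The labels give the exposure as 24 hours in the sample descriptions and as 6 hours in the series design, and the time is not settled here. The comparison addresses whether soluble products of stretched epithelium alter lung fibroblasts.

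Matricellular proteins are secreted into the extracellular matrix, where they regulate how cells adhere, migrate and receive growth factors and add little to the strength of the matrix. They bind integrins and other surface receptors, and several bind or release growth factors such as TGF-beta. Their genes are widely expressed in developing and wounded tissue, and in lung they are known as products of activated fibroblasts and of fibrotic matrix. CCN1 and CCN2 are textbook targets of the mechanically regulated co-activators YAP and TAZ, which act through TEAD factors bound to DNA.

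Sequence around the RefSeq transcription start on GRCh38.p14 was read for 7 of the 8 genes (250 bases before to 50 after the start; CCN1 had no entry). The starts in the GENCODE annotation can lie farther upstream: of the 250 bases before the RefSeq start, GENCODE exons of the same gene cover all 250 in SPARC, 105 in THBS2, 100 in TNC, 93 in TGFBI, 76 in POSTN, 1 in CCN2 and 0 in THBS1. GGAATG, the core of the TEAD site, was searched on both strands and was found in CCN2, THBS1, THBS2 and SPARC, 4 of the 7, against 14.0% of 34796 promoters of the same 300-base length. CCN2 held 3 copies, and 0.126% of all promoters held at least 3, a cut equal to the count in CCN2. These shares are given as a description, with no test. The sequences before the start of CCN2 (chr6:131951374-131951622, minus strand) and THBS1 (chr15:39580829-39581078, plus strand) are shown because these genes hold the motif and were among the 4 highest in fold change. SPARC meets both conditions and is not shown because its 250 bases lie in annotated exons. Both sequences are written 5′ to 3′, with each GGAATG in capitals. That of THBS1 ends next to the RefSeq start. That of CCN2 leaves out the 1 base before the start that lies in an annotated exon.
CCN2: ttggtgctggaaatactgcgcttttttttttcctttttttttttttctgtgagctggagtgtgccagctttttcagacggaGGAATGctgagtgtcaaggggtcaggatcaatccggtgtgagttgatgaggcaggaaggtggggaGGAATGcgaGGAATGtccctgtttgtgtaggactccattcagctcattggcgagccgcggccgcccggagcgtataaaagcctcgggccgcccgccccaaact
THBS1: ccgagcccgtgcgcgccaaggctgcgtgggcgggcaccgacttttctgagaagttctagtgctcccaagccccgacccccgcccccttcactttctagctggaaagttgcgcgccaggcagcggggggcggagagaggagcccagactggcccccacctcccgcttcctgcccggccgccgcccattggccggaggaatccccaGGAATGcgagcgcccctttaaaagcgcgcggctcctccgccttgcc
In CCN2 the copies lay at -169 to -164, -104 to -99 and -95 to -90 from the RefSeq start, all on the gene's own strand, and in THBS1 the copy lay at -46 to -41. THBS2 had a copy on each strand, at -103 to -98 and -91 to -86, and SPARC had 1 on the opposite strand at -17 to -12. By GENCODE, the SPARC match lies in an exon of that gene, and the matches in CCN2, THBS1 and THBS2 lie outside exons of their genes. Those of CCN2 and THBS1 lie before the annotated gene, while those of THBS2 lie inside it. CAGACA, a SMAD-type motif, was found in TNC (at -71 to -66, in a GENCODE exon) and in THBS2, and in 16.9% of all promoters. The AP-1 motif TGAGTCA was found in POSTN (at -220 to -214) and in 4.96% of all promoters, and the CArG box of SRF in 0 of the 7 and in 1.30%. The matches did not overlap one another. TGFBI had none of these motifs in its window. TNC, with the largest difference of the 8, had no GGAATG in its window. THBS2, with a copy on each strand, had a log2 fold change of 0.073. A match describes letters in this window, and binding was not measured.

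No matricellular gene passed the threshold over all genes. TNC, THBS1, CCN2 and SPARC were each higher on average with stretch medium, with an unadjusted 95% interval above 0. The intervals of THBS2, TGFBI, POSTN and CCN1 spanned 0. This split does not show that the genes differ in response. On the log2 scale, the intervals of SPARC (0.019 to 0.52) and THBS2 (-0.32 to 0.47) overlapped over most of their length. TNC had the largest difference of the 8, at 1.64-fold (95% interval 1.26 to 2.11), THBS1 was at 1.37-fold, CCN2 at 1.26-fold and SPARC at 1.20-fold. Counts were tested by edgeR's quasi-likelihood test with Benjamini-Hochberg adjustment over the 10968 genes that passed a filter on low counts, which all 8 genes did. At an adjusted p of 0.05, 0 of the 8 passed, and the share over all genes was 0%. At an unadjusted p under 0.05, 4 of the 8 were higher and 0 lower, where 8.08% of all genes were higher and 8.37% lower. As the 8 were chosen with earlier results of these data known, this count is a description only. A log2 fold change above 0 was seen for 5 of the 8 and for 50.1% of all genes. DESeq2 called 1 of the 8, TNC, where it called 2.84% of genes, and limma-voom called 0 of the 8, where it called 0.00912%. The median log2 fold change of the 8 was 0.17, and that of all genes 0.00035. The groups overlapped for all 8 genes, where 3.72% of all genes had groups that did not overlap. In bulk RNA, a change in the number of cells that express a gene and a change in its RNA per cell cannot be told apart.

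**Figure D1:**
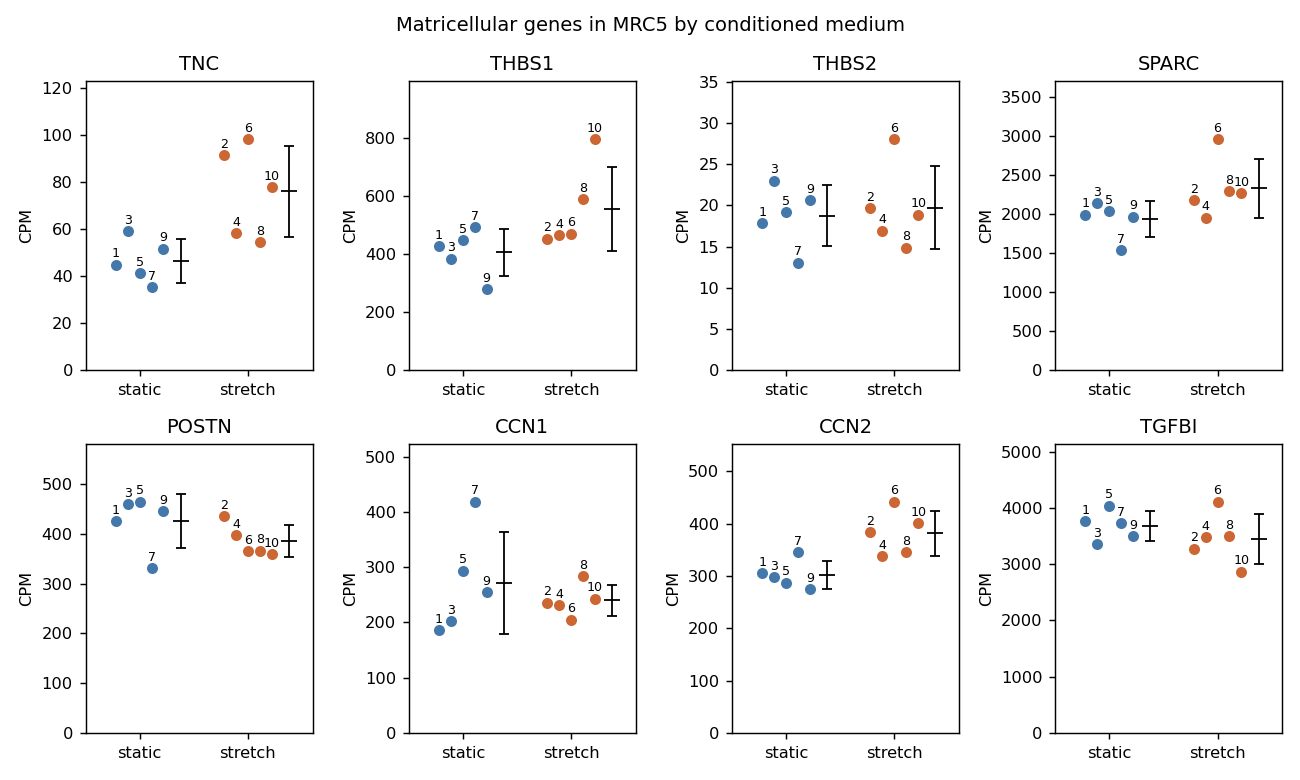
Levels of the 8 genes in CPM (counts relative to library size, scaled by TMM) in each library. Points are libraries labelled by their number, with static medium in blue and stretch medium in orange, and the black bars are the group mean ± SD (n = 5 each). The groups overlap in every panel, and the stretch mean lies above the static mean for TNC (76.0 against 46.4 CPM) and CCN2 (382 against 302 CPM).

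**Figure D2:**
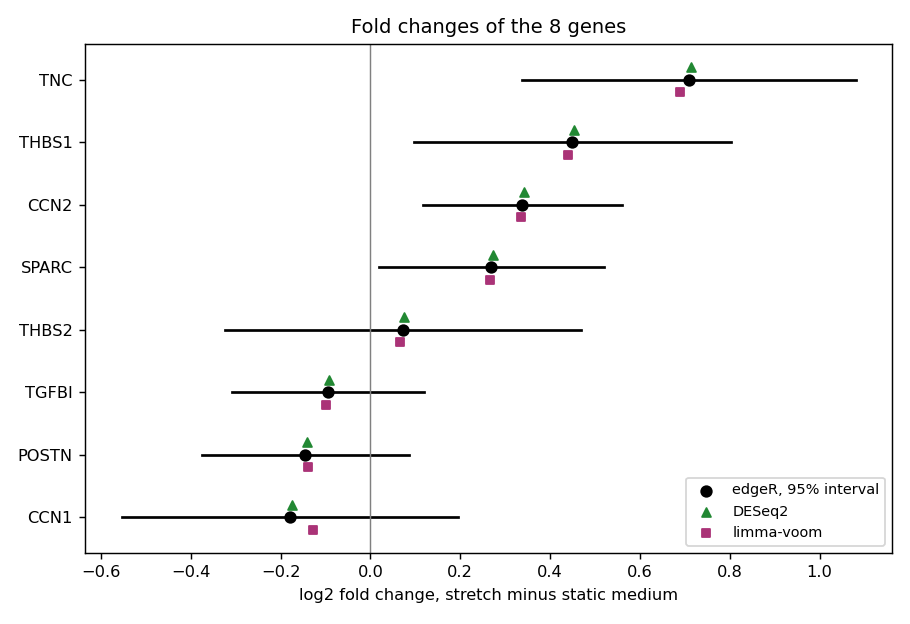
Log2 fold changes (stretch minus static medium) of the 8 genes. Black points and lines are edgeR estimates with 95% intervals, triangles DESeq2 and squares limma-voom. The intervals of TNC, THBS1, CCN2 and SPARC lie above 0 before adjustment, and those of the other 4 genes span 0.

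TNC encodes tenascin-C, a hexameric glycoprotein that weakens cell adhesion to fibronectin and appears in wounds (chromosome 9, 115019578 to 115118257). It was at 44.8, 59.0, 41.4, 35.2 and 51.6 CPM in static 1, 3, 5, 7 and 9. In stretch 2, 4, 6, 8 and 10 it was at 91.2, 58.3, 98.2, 54.5 and 77.8 CPM. Stretch 2, 6 and 10 lay above every static library, while stretch 4 and 8 lay just under static 3 and above the other static libraries, so a stretch library was the higher in 23 of the 25 pairs. The means were 46.4 ± 9.18 and 76.0 ± 19.4 CPM (SD, n = 5 each), which gave 0.71 ± 0.18 for the log2 fold change (standard error). The unadjusted p was 0.000883 and the adjusted p 0.109 in edgeR, while DESeq2 gave an adjusted p of 0.0125 and limma-voom 0.125. Of the genes tested, 0.766% had a smaller p. With each library left out in turn, the log2 fold change stayed between 0.60 and 0.81, the unadjusted p was under 0.05 in 10 of 10 fits and the adjusted p ranged from 0.0600 to 0.226.

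The thrombospondins THBS1 and THBS2 encode trimeric glycoproteins that inhibit angiogenesis, and thrombospondin-1 also activates latent TGF-beta. THBS1 (chromosome 15, 39581079 to 39599466) was at 428, 385, 449, 494 and 280 CPM in static 1, 3, 5, 7 and 9. With stretch medium it was at 454, 466, 472, 591 and 798 CPM in stretch 2, 4, 6, 8 and 10. Stretch 8 and 10 lay above every static library, and the other 3 stretch libraries lay between static 5 and static 7. The log2 fold change was 0.45 ± 0.17 (means of 407 ± 81.1 and 556 ± 146 CPM, SD, n = 5 each), with an unadjusted p of 0.0158 and an adjusted p of 0.208 in edgeR. Without stretch 10 it was 0.28, with an unadjusted p of 0.0727, and in the other 9 fits that left out a library the unadjusted p was under 0.05.

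THBS2 (chromosome 6, 169215780 to 169254044) was at 17.8, 23.0, 19.2, 13.1 and 20.6 CPM in static 1, 3, 5, 7 and 9 and at 19.7, 16.9, 28.1, 14.9 and 18.9 CPM in stretch 2, 4, 6, 8 and 10. The groups overlapped over most of their range, with stretch 6 the highest and static 7 the lowest of the 10 libraries. Its log2 fold change was 0.073 with a 95% interval of -0.32 to 0.47 (adjusted p = 0.881, edgeR), which leaves room for changes of 0.799-fold to 1.38-fold. The sign was negative without static 7 (-0.036) and without stretch 6 (-0.097). Within a library, the log2 ratio of THBS2 to THBS1 averaged -4.42 ± 0.56 in the static and -4.79 ± 0.55 in the stretch libraries, and the difference was -0.38 (two-sided p = 0.286 by an exact permutation test, or 0.429 when adjusted over the 3 pairs of related genes compared here). With a library left out, the difference lay between -0.58 (without static 7) and -0.21 (without static 9). The smallest p this test can give is 0.00794. A difference in response between the thrombospondins was therefore not detected with 5 libraries per group.

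An intronic transcript in the table lies inside THBS1. THBS1-IT1 (chromosome 15, 39586561 to 39587293) is annotated on the same strand and shares 0 bases with annotated THBS1 exons. Its mean level was 507 ± 57.8 CPM in the static and 645 ± 90.8 CPM in the stretch libraries, and its log2 fold change was 0.35 ± 0.12 (unadjusted p = 0.00818, adjusted p = 0.166, edgeR). The stretch library was higher in 24 of 25 pairs. How reads were divided between this transcript and THBS1 is not given in the sources used here. With the counts of both summed, a step chosen after seeing the data, the log2 fold change was 0.39 and the adjusted p 0.166. FSIP1, also in the table, overlaps THBS1 on the opposite strand.

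CCN1 and CCN2 encode cysteine-rich modular proteins that bind integrins and heparan sulphate and are induced by serum, TGF-beta and mechanical load. CCN2 (chromosome 6, 131948176 to 131951373), also known as connective tissue growth factor, was at 306, 298, 287, 346 and 275 CPM in static 1, 3, 5, 7 and 9. In stretch 2, 4, 6, 8 and 10 it was at 384, 338, 442, 345 and 401 CPM. Stretch 2, 6 and 10 lay above every static library, and stretch 4 and 8 lay above each static library except static 7. The log2 fold change was 0.34 ± 0.11, with an unadjusted p of 0.00513 and an adjusted p of 0.146 in edgeR and an adjusted p of 0.0539 in DESeq2. Leaving out each library in turn gave 0.28 to 0.39, with an unadjusted p under 0.05 in 10 of 10 fits.

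CCN1 (chromosome 1, 85580761 to 85583962) was at 187, 202, 294, 419 and 254 CPM in static 1, 3, 5, 7 and 9. With stretch medium it was at 236, 232, 205, 283 and 243 CPM in stretch 2, 4, 6, 8 and 10. All 5 stretch libraries lay inside the static range, and static 7 was the highest of the 10. The static SD of 92.8 CPM compares with 28.3 CPM in the stretch group. The log2 fold change was -0.18 with a 95% interval of -0.55 to 0.196 (adjusted p = 0.645, edgeR), and it was 0.033 without static 7 and -0.29 without static 1. The log2 ratio of CCN2 to CCN1 averaged 0.21 ± 0.41 in the static and 0.67 ± 0.30 in the stretch libraries (SD, 5 in each group), a difference of 0.46 (two-sided p = 0.0873 by an exact permutation test, or 0.262 when adjusted over the 3 pairs). That difference lay between 0.34 (without static 7) and 0.58 (without static 1) with a library left out. The ratio overlapped between groups, from -0.28 to 0.71 and from 0.28 to 1.11, so a difference in response between the CCN genes was not shown.

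SPARC, also called osteonectin, binds collagen and calcium and takes part in collagen fibril assembly (chromosome 5, 151661096 to 151687165). It was at 1989, 2135, 2038, 1539 and 1966 CPM in static 1, 3, 5, 7 and 9 and at 2175, 1951, 2959, 2292 and 2269 CPM in stretch 2, 4, 6, 8 and 10. Stretch 2, 6, 8 and 10 lay above every static library and stretch 4 lay above only static 7. The log2 fold change was 0.27 ± 0.12, with an unadjusted p of 0.0368 and an adjusted p of 0.275 in edgeR. Both extremes weighed on it: without stretch 6 it was 0.17 and without static 7 it was 0.197. The unadjusted p was under 0.05 in 5 of the 10 fits that left out a library, with a range of 0.0155 to 0.1296.

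POSTN and TGFBI encode periostin and the TGF-beta-induced protein, paralogs built of fasciclin domains that bind integrins and collagen. POSTN (chromosome 13, 37562583 to 37598844) was at 426, 459, 465, 331 and 446 CPM in static 1, 3, 5, 7 and 9 and at 436, 398, 366, 366 and 360 CPM in stretch 2, 4, 6, 8 and 10. Stretch 4, 6, 8 and 10 lay under every static library except static 7, which was the lowest of the 10. The log2 fold change was -0.14 ± 0.11, with an adjusted p of 0.529 (edgeR). Without static 7 it was -0.22 with an unadjusted p of 0.0341 and an adjusted p of 0.364.

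TGFBI (chromosome 5, 136028895 to 136063818) was at 3770, 3362, 4043, 3731 and 3495 CPM in static 1, 3, 5, 7 and 9. It was at 3276, 3477, 4115, 3503 and 2868 CPM in stretch 2, 4, 6, 8 and 10. Stretch 2 and 10 lay below every static library and stretch 6 above every one. Its log2 fold change of -0.094 had the narrowest interval of the 8, -0.31 to 0.12, or 0.808-fold to 1.09-fold (adjusted p = 0.674, edgeR). It was -0.036 without stretch 10 and -0.16 without stretch 6. The log2 ratio of TGFBI to POSTN was 3.12 ± 0.24 in the static and 3.16 ± 0.23 in the stretch libraries (two-sided p = 0.762 by an exact permutation test, before and after adjustment over the 3 pairs).

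The 8 genes did not move as a block from library to library. Static 7 had the lowest static level of TNC, THBS2, SPARC and POSTN, 4 genes, and the highest static level of THBS1, CCN1 and CCN2, 3 genes. Relative to the static mean on the log2 CPM scale, it stood at -0.49 for THBS2 and at 0.69 for CCN1. Stretch 6 had the highest stretch level of TNC, THBS2, SPARC, CCN2 and TGFBI, 5 genes, and the lowest of CCN1. Stretch 10 had the highest THBS1 and the lowest POSTN and TGFBI. The TNC value was above the static mean in each of the 5 stretch libraries, from 0.25 in stretch 8 to 1.10 in stretch 6, as was CCN2, from 0.16 to 0.55.

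**Figure D3:**
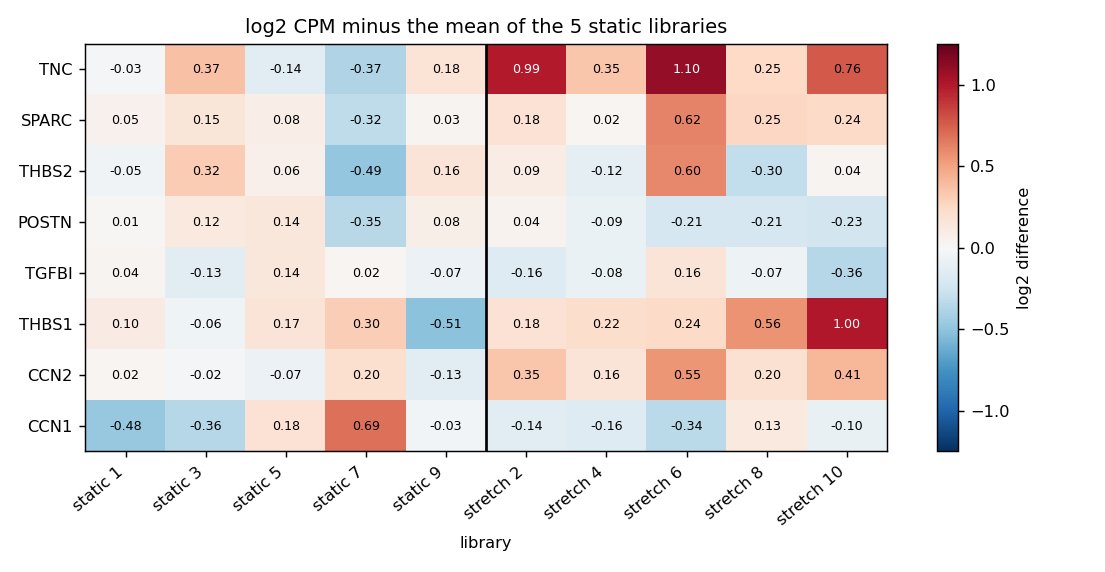
Log2 CPM of the 8 genes in each library minus the mean of the 5 static libraries. Rows are genes, columns are libraries, a vertical line parts static from stretch medium, and red is above and blue below the static mean. TNC, SPARC, THBS1 and CCN2 are above 0 in every stretch library, and static 7 is low for THBS2 (-0.49) and high for CCN1 (0.69).

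**Figure D4:**
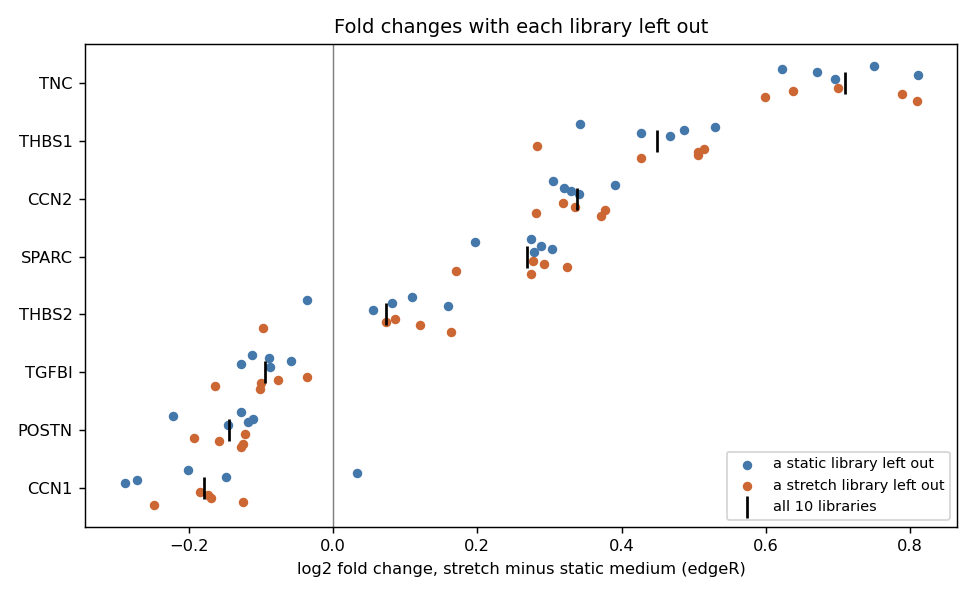
Log2 fold changes from edgeR with each of the 10 libraries left out. Each point is a fit without a static (blue) or a stretch (orange) library, and the black tick is the fit with all 10. TNC stays between 0.60 and 0.81, while CCN1 moves to 0.033 without static 7 and THBS2 to -0.097 without stretch 6.

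Genes outside the group and its related lists that followed these patterns most closely were found by Pearson's correlation of log2 CPM over the 10 libraries, a description that mixes the medium with differences between libraries. The closest to TNC were the lysophospholipid acyltransferase gene MBOAT7 (r = 0.956), the extracellular matrix protein gene ECM1 (0.951) and the striatin gene STRN4 (0.950). ECM1 averaged 422 CPM in the static and 632 CPM in the stretch libraries (log2 fold change 0.58, adjusted p = 0.128, edgeR). The closest to CCN2 were the transporter gene SLC37A2 (0.945, at means of only 1.45 and 2.18 CPM, where 3 counts represent 0.355 to 0.709 CPM), MED13 of the Mediator kinase module (0.916) and the helicase gene ASCC3 (0.914). The closest to POSTN were the complement C1 inhibitor gene SERPING1 (0.881), KBTBD3 (0.875) and PRRG1 (0.868). Their log2 fold changes were -0.15, -0.37 and -0.035 in that order, with adjusted p-values of 0.643, 0.362 and 0.931 in edgeR.

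Genes that work with the matricellular proteins were read from 5 lists drawn up from general knowledge, with earlier results of these data known. Their counts are therefore a description only. In each list 0 genes passed an adjusted p of 0.05 in edgeR, where the share over all genes was 0%. Counts below are therefore at an unadjusted p under 0.05, against 8.08% of all genes higher and 8.37% lower. Of 12 other matricellular genes tested (of 30 listed), 0 were higher and 1 was lower, with a median log2 fold change of -0.046. It was LGALS3, galectin-3, a secreted lectin, at 465 ± 89.0 CPM in the static and 378 ± 43.0 CPM in the stretch libraries (adjusted p = 0.267, edgeR). Its log2 fold change was -0.30 and moved to -0.18 without static 7 (unadjusted p = 0.124), and the unadjusted p was under 0.05 in 6 of the 10 fits that left out a library. The other thrombospondin gene tested, THBS3, was at 0.36, and the other CCN gene, CCN3, at 0.21, both chosen after their values were seen and with unadjusted p-values of 0.0955 and 0.276.

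Of 26 receptor genes tested (of 30), 3 were higher and 2 lower, with a median of 0.0084. ITGA3, a laminin-binding integrin chain that also binds thrombospondin-1, was at 164 ± 12.7 and 201 ± 11.0 CPM with no overlap (adjusted p = 0.164, edgeR), and the fibronectin receptor chain ITGA5 was at 0.35 ± 0.13. ITGB1, the integrin beta chain shared by many matrix receptors, was lower at -0.43 ± 0.14 (116 ± 20.3 and 86.2 ± 15.8 CPM, adjusted p = 0.167). The vitronectin receptor chains, named after their values were seen, lay on opposite sides, ITGB3 at 0.61 ± 0.25 and ITGAV at -0.25 ± 0.10. The groups overlapped for ITGB3 and did not overlap for ITGAV. With each library left out in turn, ITGA3 and ITGB1 kept an unadjusted p under 0.05 in 10 of 10 fits, ITGA5 in 8, ITGAV in 7 and ITGB3 in 5. The number of higher genes went down to 1 without static 7 or without stretch 6, and the number of lower genes up to 4 without stretch 4.

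Of 25 matrix partners and processing genes tested (of 27), 5 were higher and 0 lower, and the median was 0.12. ADAMTS1, a metalloprotease that cleaves proteoglycans, was at 95.8 ± 16.3 and 131 ± 12.6 CPM with no overlap (0.45 ± 0.13, adjusted p = 0.128 in edgeR and 0.0330 in DESeq2). MMP14, a membrane-bound collagenase, was at 0.23 ± 0.089, and FN1, fibronectin, to which tenascin-C and periostin bind, at 0.30 ± 0.12. COL1A1 (0.22) and the protease inhibitor gene TIMP3 (0.34), named after their values were seen, completed the 5. Without static 7 the number of higher genes was 2, TIMP3 was at 0.22 (unadjusted p = 0.0887), FN1 at 0.22 (0.0777) and COL1A1 at 0.18 (0.0905). ADAMTS1 and MMP14 had an unadjusted p under 0.05 in 10 of 10 fits that left out a library.

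Of 25 YAP, TEAD and SRF regulators and targets tested (of 30), 5 were higher and 2 lower, with a median of 0.076. The angiomotin gene AMOTL2, a YAP target and inhibitor, was at 37.4 ± 6.99 and 52.2 ± 6.27 CPM with no overlap (0.47 ± 0.14, adjusted p = 0.136 in edgeR and 0.0496 in DESeq2). TEAD1, which encodes a DNA-binding partner of YAP, was lower, at 48.7 ± 11.6 and 28.5 ± 13.9 CPM (-0.78 ± 0.25, adjusted p = 0.154, edgeR), and it kept an unadjusted p under 0.05 with each library left out. Its log2 fold change then lay between -0.63 (without stretch 6, adjusted p = 0.289) and -1.10 (without stretch 4, adjusted p = 0.0362), and the adjusted p was under 0.05 in 1 of the 10 fits. The tissue factor gene F3, a YAP target, was at -0.48 ± 0.15. The other 4 higher genes, named after their values were seen, were TEAD3 (0.29), the SRF co-activator gene MRTFA (0.43), ACTA2 (0.32) and TAGLN (0.54). Without stretch 6, TAGLN was at 0.35 (unadjusted p = 0.0674) and ACTA2 at 0.25 (0.0743), and without static 7, TEAD3 was at 0.21 (0.0719). The number of higher genes was 3 in each of these fits, and the number of lower genes was 4 without static 9 or without stretch 10.

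Of 25 TGF-beta ligands, receptors and targets tested (of 25), 1 was higher and 2 lower, with a median of 0.038. TGFBR2, the type II receptor, was at 25.5 ± 4.09 CPM in the static and 18.3 ± 2.98 CPM in the stretch libraries with no overlap (-0.48 ± 0.16, adjusted p = 0.154, edgeR). CDKN2B, a cell-cycle inhibitor induced by TGF-beta, was at -0.55 ± 0.23, and at -0.37 without static 3 (unadjusted p = 0.117). LRRC32, which anchors latent TGF-beta at the cell surface, was at 0.83 ± 0.36 at a mean of 1.80 and 3.37 CPM, close to the 0.355 to 0.709 CPM that 3 counts represent, and its unadjusted p was under 0.05 in 4 of the 10 fits that left out a library. The number of lower genes was 1 without static 1 and 3 without static 9 or without stretch 4, and that of higher genes was 2 without static 3.

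**Figure D5:**
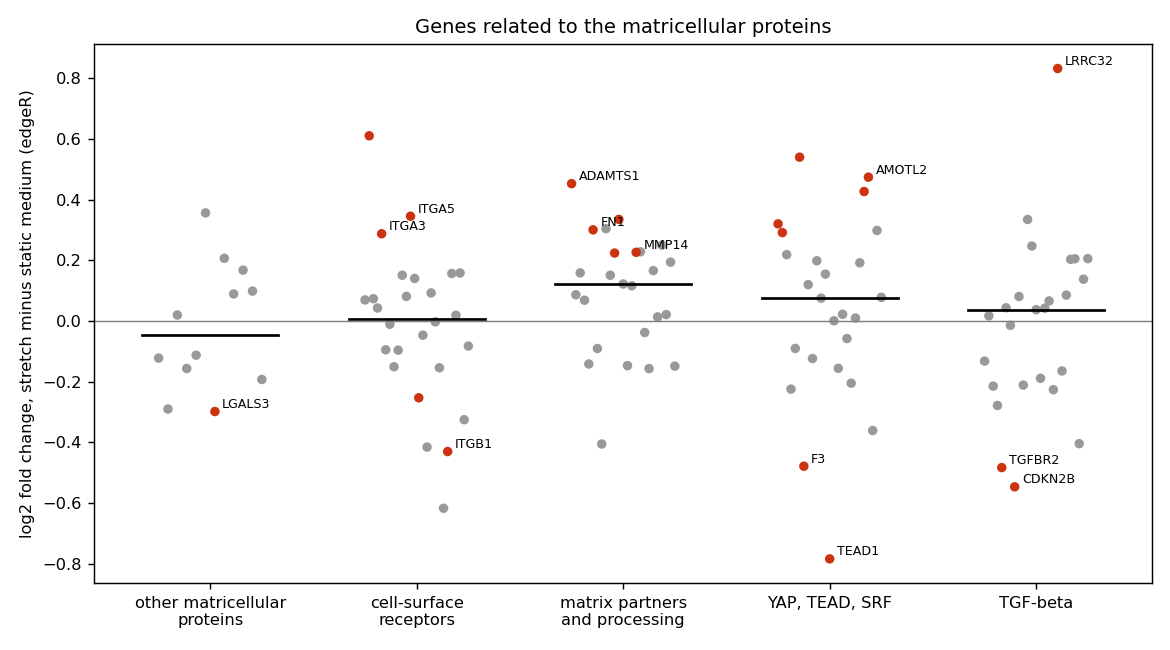
Log2 fold changes (stretch minus static medium, edgeR) of the genes tested in the 5 related lists. Each point is a gene, red where its unadjusted p was under 0.05, and the black line is the list median. The medians run from -0.046 to 0.12, and TEAD1 (-0.78) and LRRC32 (0.83) lie farthest from 0.

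Total counts per library ran from 4610480 to 8455073 with static and from 4231653 to 7724512 with stretch medium, and the lowest count behind any value of the 8 genes was 81 (THBS2). The labels name neither a batch nor separate cultures, so p-values measure only the spread between these libraries, which may be technical. All 12 fibroblast markers were in the table, and their summed level was 14859 to 16776 CPM in the static and 13011 to 16850 CPM in the stretch libraries. Of 18 markers of A549 and lung epithelium, 10 were in the table, with a summed level of 41.7 to 52.7 and 45.9 to 56.3 CPM. KRT18, KRT19 and CLDN4 had the highest means among them, at 12.9, 12.3 and 7.30 CPM, and CDH1 was under 1 CPM in every library. Endothelial markers (4 of 6 in the table), mostly TEK (mean of 52.2 CPM), summed to 53.7 to 65.9 and 48.4 to 68.2 CPM. Leukocyte markers (3 of 6), nearly all CD68, summed to 194 to 209 and 181 to 232 CPM. The ranges overlapped between groups for each list, and their part in the results was not tested.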

How the data were processed

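RNA of 10 MRC5 samples was measured, 5 per medium. Trizol RNA was made into Ion AmpliSeq transcriptome libraries, a multiplex PCR of short gene targets, per the labels' protocols. No molecular identifiers are mentioned, so the floor of 3 counts covers only the error of counting. The submitters' processing notes name fastp 0.20.1, Salmon 1.9 and the build hg38/GRCh38. Annotation and use of strand were not given in these sources. The authors deposited unscaled whole-number counts per Ensembl gene. Amplified targets have no common length, so levels were not compared between genes. Ratios between genes were read only for their difference between media. Columns were matched to samples by title number, and symbols were found for 13831 of 14054 identifiers. No pair of libraries within a group agreed within counting noise (chi-square over degrees of freedom of 5.75 to 23.0).

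The test was edgeR's (4.0.16, in R 4.3.3; filterByExpr with a minimum count of 10 and total of 15, TMM, glmQLFit and glmQLFTest), adjusted by Benjamini-Hochberg over 10968 genes. Log2 CPM and ratios between genes used a prior count of 2. ± after CPM is the SD and after a fold change the standard error, and intervals are 95%. Alternatives used DESeq2 1.42.0, limma-voom (limma 3.58.1), a robust fit, other scalings and filters, and each library left out. The edgeR, DESeq2 and voom steps were tested on simulated data. Positions are from GENCODE release 29 on GRCh38.

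The members and lists were chosen with earlier results of these data known. Named genes were the 8 members, up to 3 genes per list with the smallest p under 0.05, and the 3 genes most like TNC, CCN2 and POSTN (POSTN has the smallest p among lower members), leaving out ribosomal protein genes and chromosome 8. A comparison of protein sequences was planned and is not reported here.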

Additional observations from a re-analysis of the deposited data

Results flagged for a closer look

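In 5 of 86 groups of 5 libraries checked, over the named genes, the ratios between related genes and the total counts, 1 library stood apart from the rest by more than 0.71 of the group's range. Chance gives about 1 in 20 such groups. Static 7 accounted for 4 of the 5. The POSTN and PRRG1 cases are not separate, because PRRG1 was named for its correlation with POSTN. Its SPARC level of 1539 CPM was below the other static libraries, at 1966 to 2135 CPM. Its POSTN level of 331 CPM compared with 426 to 465 CPM in the others. Its TGFBR2 level of 32.8 CPM was above the 23.3 to 24.4 CPM of the others, and its PRRG1 level of 18.5 CPM was below 28.3 to 29.9 CPM. The remaining case was LRRC32 in stretch 8, at 1.03 CPM against 3.66 to 4.62 CPM in the other stretch libraries.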

How the results depend on the processing

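No paired analysis was run, because the labels state no pairing and the 2 groups share no title number. The numbers alternate between static and stretch, and whether neighbouring numbers were handled as pairs is not known. Of the 8 matricellular genes, TNC was called only by DESeq2 (log2 fold change 0.71, adjusted p = 0.0125), which gave a count of 1 of the 8. No other alternative scaling, filter, test or left-out library brought any of the 8 past the threshold. The count of genes past the threshold over the whole table, 0 in edgeR with all libraries, was 275 in DESeq2, 1 in limma-voom and 0 to 39 with a library left out (39 without stretch 4, 2 without stretch 6 and 1 without stretch 10). With a library left out, the log2 fold change of THBS2 ranged from -0.097 to 0.16, that of CCN1 from -0.29 to 0.033 and that of PRRG1 from -0.15 to 0.011. The log2 ratio of TGFBI to POSTN ranged from -0.047 to 0.13 in its difference between media and was negative without static 3 (-0.026), static 9 (-0.00093) and stretch 6. The directions of TNC, THBS1, CCN2, SPARC, POSTN and TGFBI were kept under every alternative run. The cause of these changes was not tested. DESeq2 also called ADAMTS1, AMOTL2, MBOAT7, ECM1 and ASCC3. The calls of MBOAT7, ECM1 and ASCC3 are not separate results, because these genes were named for their correlation with TNC or CCN2 over the same libraries. With 5 libraries per group, the intervals of the 8 genes had a median half-width of 0.30 on the log2 scale.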
